A study of Mus musculus with 3 samples.

Results

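The genes described here are 40 genes of the neuronal cytoskeleton and its transport motors, taken by name from the 19621 genes counted in the annotated regions of the mouse main olfactory bulb. They are 8 tubulins, 14 microtubule-associated proteins and regulators, 10 kinesins and kinesin light chains, 4 genes of dynein and dynactin, and 4 neurofilament genes. The data come from high-density spatial transcriptomics, in which the RNA of a tissue section is caught on an array of barcoded spots, so that each count carries a position. The samples were 3 coronal sections of the bulb of C57BL/6J mice aged 12 weeks, with no treatment or allele named in the labels. No label says whether the sections came from separate animals. With section in the model, p-values measure how differences between regions vary from section to section, and this spread may be technical. Each spot carries a named region: olfactory nerve layer (ONL), glomerular layer (GL), external plexiform layer (EPL), mitral layer (M/T), internal plexiform layer (IPL), granule cell layer external (GCL-E), granule cell layer internal (GCL-I), ependymal cell zone (E) and rostral migratory system (RMS). Counts were added up per section and region and are given as that sum's CPM, the number of counts scaled to a common total. The question put to the 40 genes was how their transcripts lay in the EPL, a layer made mainly of dendrites, against the cell body layers M/T, GCL-E and GCL-I. The sum of a region holds RNA of both the dendrites and the cell bodies in it, which cannot be told apart.

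Microtubules are polymers of alpha- and beta-tubulin that run along axons and dendrites, and microtubule-associated proteins bind and stabilise them. Kinesins carry cargo mostly toward the plus end of a microtubule and dynein toward the minus end, while neurofilaments set the calibre of large axons. Some of these proteins are made from messenger RNA that is itself carried into dendrites, and Map2 is the textbook case. In the olfactory bulb, mitral and tufted cells send long dendrites through the EPL, and granule cells below the mitral layer send dendrites up into it. The nerve layer outside holds the axons of the olfactory sensory neurons and their ensheathing glia.

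The 3 sections held 344260, 650393 and 505305 counts, and their region sums ran between 1456 counts (RMS, section 3) and 182699 counts (EPL, section 2). Section 1 stood apart: over the 1996 genes tested, its levels correlated with those of sections 2 and 3 at 0.431 and 0.461, while sections 2 and 3 correlated at 0.972. The region labels were checked against markers of cell types. The summed level of 8 markers of mitral and tufted cells averaged 3540 CPM in M/T and 3073 CPM in the EPL, against 651 CPM in GCL-E and 795 CPM in GCL-I; Tbr1, Tbx21 and Slc17a6 of that list were at 0 in GCL-E and Slc17a6 in GCL-I. The summed level of 8 markers of granule cells averaged 9045 CPM in GCL-I and 8035 CPM in GCL-E, against 4338 CPM in the EPL. The 4 markers of sensory axons summed to 1612 CPM in the ONL and to between 20.5 and 744 CPM in the other regions.

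Among the tubulins, 2 pairs are near copies of each other. The coding sequences of Tuba1a and Tuba1b, both 1356 bases long, were 98.3% identical, and those of Tubb2a and Tubb2b were 96.5% identical, while every other pair within the alpha- or the beta-tubulins was between 82.3% and 85.2% identical. The last 60 coding bases, which encode the acidic tail where tubulin isotypes usually differ most, are printed for the beta pair because a 3' read from this stretch could hardly tell the partners apart. They were read from the GENCODE transcripts of the mm10 build, 5' to 3' on the coding strand, the capitals mark the positions at which partners differ, and the stop codon is included. Tubb2a lies at chr13:34074274-34078007 and Tubb2b at chr13:34126748-34130466, both on the minus strand.
Tubb2a: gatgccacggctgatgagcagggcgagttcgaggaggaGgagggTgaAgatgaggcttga
Tubb2b: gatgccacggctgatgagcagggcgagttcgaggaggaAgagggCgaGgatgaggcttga
The pair differed at 3 of these 60 positions, and none of the 3 changes the encoded amino acid. The untranslated 3' ends were not compared. No source used here says how the authors shared out reads between such partners, so the split between Tuba1a and Tuba1b, and between Tubb2a and Tubb2b, is uncertain. The light chains Dynll1 and Dynll2 were 81.1% identical over 270 coding bases.

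Of the 40 genes, 30 had enough counts to be tested. A gene was tested where at least 3 of the 27 sums reached about 213 CPM, which is 10 counts in a sum of median size. The 10 below that filter were Nefh with 71 counts in all, Kif21b with 93, Map6 with 101, Kif21a and Klc2 with 107 each, Dctn1 with 110, Kif3a and Nefm with 114 each, Kif5c with 153 and Ina with 168. Stmn4, with 140 counts, was the tested gene with the fewest counts. The genes with the most counts were Map1b (2584), Map2 (2557) and Map1a (1564), all 3 of them microtubule-associated proteins.

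Summed over all 40 genes, the level averaged over the 3 sections was highest in the EPL and M/T. It was 14953, 17460 and 16114 CPM in the EPL of sections 1, 2 and 3 and 12750, 18376 and 17336 CPM in M/T. In GCL-E it was 13176, 13107 and 12746 CPM, and in GCL-I 12882, 12834 and 12589 CPM. The EPL was above both granule cell layers in every section, and M/T was above both in sections 2 and 3. In section 1 M/T was below every other region but the ONL, and the IPL stood at 14811 CPM. The groups of genes lay differently. The microtubule-associated proteins and regulators summed to 8883 ± 2532 CPM in the EPL (SD, n = 3), against 6015 ± 1225 CPM in GCL-E and 6021 ± 950 CPM in GCL-I. The tubulins summed to 2666 ± 1027 CPM in the EPL. They summed to 3269 ± 746 CPM in M/T, 3030 ± 1002 CPM in GCL-E and 2943 ± 721 CPM in GCL-I. For both groups of genes these spreads overlap between regions, but the regions are paired by section. The tubulins were at 3852, 2064 and 2083 CPM in the EPL of sections 1, 2 and 3. In M/T they were at 4123, 2746 and 2936 CPM and in GCL-E at 4146, 2735 and 2208 CPM, higher in each section. In GCL-I, at 3775, 2540 and 2513 CPM, they were higher in sections 2 and 3 only. These group sums were not tested. In sums over a region, fewer cells of a type and less RNA per cell cannot be told apart.

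Of the 30 tested genes, 10 differed among the 9 regions at an adjusted p under 0.05 (edgeR quasi-likelihood test over the sums, with section in the model, adjusted by Benjamini-Hochberg over all genes), against 23.2% of all 1996 genes. They were 6 of 13 microtubule-associated proteins and regulators, 2 of 5 kinesins and light chains, 1 of 3 genes of dynein and dynactin, and Nefl, the light neurofilament subunit and the only neurofilament gene tested. The smallest adjusted p belonged to Map1b (1.60e-35), the kinesin Kif5b (1.17e-24) and Map1a (1.01e-09), followed by Dst (7.65e-07), Nefl (5.59e-06) and Map2 (6.54e-05). Map4 (7.18e-04), Kif1b (0.00406), Dync1h1 (0.0235) and Stmn3 (0.0274) completed the list. Dync1h1 lost the call under 8 of 13 alternatives, among them DESeq2, library sizes as the only scaling (0.0689) and leaving out section 1 (0.201), section 2 (0.0813) or section 3 (0.194). Kif1b (0.0892 and 0.279) and Stmn3 (0.542 and 0.239), each lost under 5 of 13, and Map2 (0.653 and 0.150) and Map4 (0.265 and 0.130) did not pass without section 2 or without section 3. Dst (0.105) and Map1a (0.223) did not pass without section 2 (edgeR, adjusted p). Map1b was highest in the EPL, at 2356 ± 1424 CPM (SD, n = 3), and lowest in GCL-E, at 703 ± 424 CPM. Map2 was highest in the IPL, the other dendrite- and fibre-rich layer, at 2076 ± 1216 CPM, and lowest in the RMS and the ONL, at 956 and 975 CPM. Dync1h1, the heavy chain of cytoplasmic dynein, was also highest in the IPL, at 431 ± 99.7 CPM, and Map4 in M/T, at 747 ± 47.6 CPM.

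**Figure D1:**
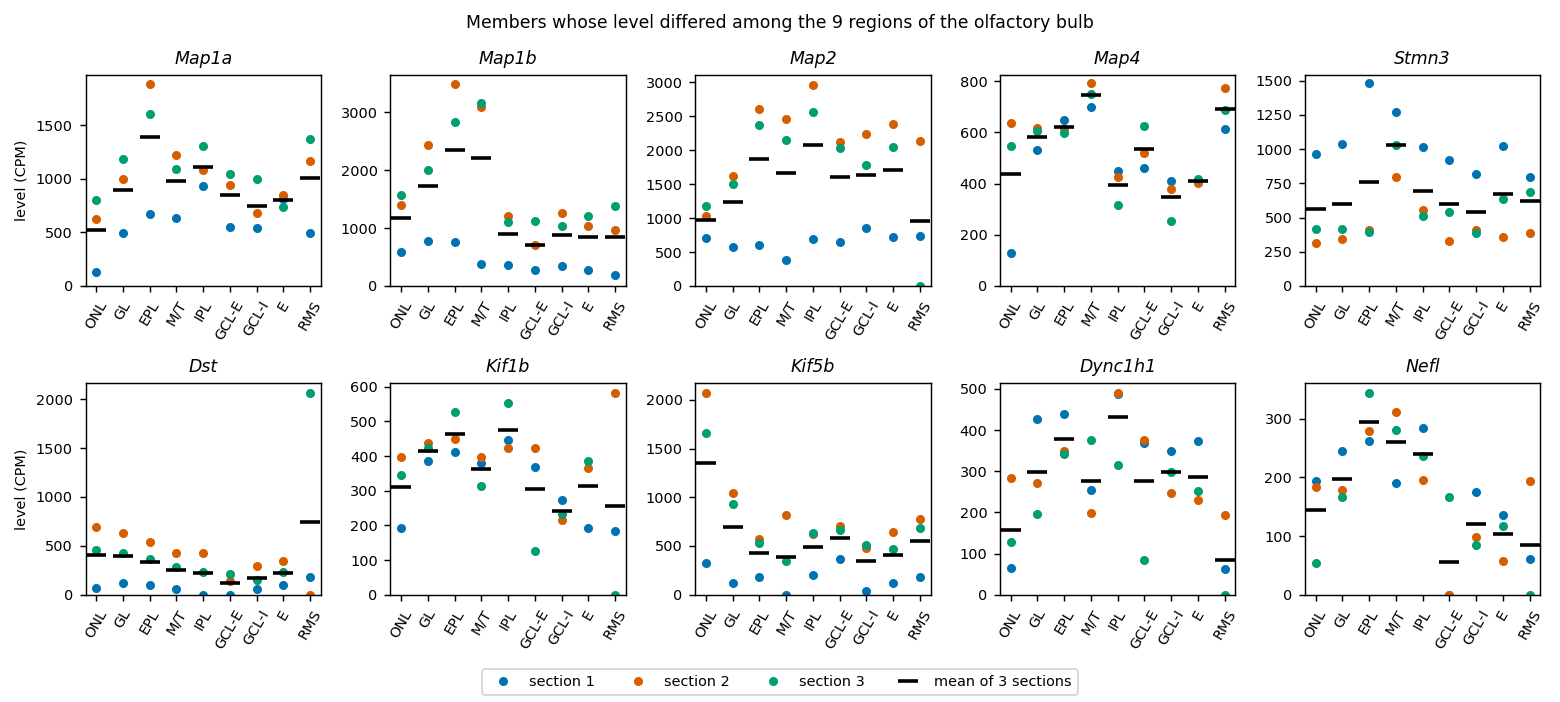
Levels of the 10 genes that differed among the regions, in CPM on a linear axis that starts at 0, for the 9 regions ordered along the horizontal axis from the nerve layer to the deepest region. Each point is a section and each bar the mean of 3 sections; Map1b peaks in the EPL and M/T, Kif5b in the ONL at a mean of 1348 CPM, and the point of Dst at 2060 CPM in the RMS rests on 3 counts.

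None of the 8 tubulins passed the test among the 9 regions with edgeR or DESeq2, where 23.2% and 18.2% of all genes passed. Of the 8, 1 had an unadjusted p under 0.05. With library sizes as the only scaling Tubb2a (adjusted p = 0.0129) and Tubb2b (adjusted p = 0.0272) passed that test (edgeR). Tuba1a, the main neuronal alpha-tubulin, had 495, 597 and 623 CPM in the EPL of sections 1, 2 and 3, against 715, 575 and 626 CPM in the cell body layers, whose level here is the mean of M/T, GCL-E and GCL-I. Tubb2a had 564, 339 and 327 CPM in the EPL, against 761, 585 and 535 CPM in the cell body layers. Tubb5 had 894, 279 and 343 CPM in the EPL, against 674, 542 and 461 CPM in the cell body layers. For Tubb2a the EPL was below the cell body layers in 3 of 3 sections, whereas Tuba1a and Tubb5 were below in 2 of 3. Tuba4a lay the other way, at 303, 235 and 192 CPM in the EPL, against 187, 181 and 140 CPM in the cell body layers, higher in 3 of 3 sections without overlap, and did not pass (log2 fold change 0.72, SE 0.30, adjusted p = 0.0973, edgeR). Tuba4a shares 1379 exon bases with Stk16 on the other strand. Tuba1a and Tuba1b share 473 and 426 exon bases with the protein-coding Gm49450 on the same strand, where strand could not separate the reads. The fitted log2 fold change of Tuba1a was 0.12, with library sizes as the only scaling -0.10. Of the 8 tubulins 4 were above 0, with a median log2 fold change of 0.03 against 0.06 over all tested genes, and 2 were above 0 with library sizes as the only scaling.

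In the EPL against the cell body layers, 5 of the 30 tested genes (16.7%) were higher and 0 were lower. Of all 1996 genes, 9.67% were higher and 3.31% lower (13.0% in either direction). At an unadjusted p under 0.05, 1 of the 30 was lower. DESeq2 also called 5 higher and 0 lower, where it called 10.1% of all genes. The 5 were the microtubule-associated proteins Map1b and Map1a, the linker Dst, the kinesin Kif1b and Nefl. The longest protein-coding transcripts of Dst, Map1a, Map1b and Kif1b have 23279, 11825, 11808 and 10233 bases. That of Nefl has 3380 bases, and those of the tubulins have between 1598 and 2840. Dync1h1, with 14342 bases, was not called. Whether differences between regions go with transcript length was not tested. The median log2 fold change was 0.22 over the 30 genes and 0.06 over all tested genes. Of the 30 genes 23 were above 0, against 1100 of all 1996, both counted with TMM scaling only. The scaling bears on the split of calls over all genes, which was 193 higher and 66 lower with TMM, 164 and 107 with RLE, and 135 and 181 with library sizes alone, where the median of all genes moved to -0.15. The same 5 genes were higher under all 3 scalings, and Tubb2a was lower under the other two (log2 fold change -0.56, adjusted p = 0.0391 with RLE; -0.66, adjusted p = 0.0107 with library sizes; edgeR).

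Map1b (chr13:99421446-99516540, minus strand, mm10) encodes a microtubule-associated protein of growing and plastic neurites. It stood at 757, 3487 and 2825 CPM in the EPL of sections 1, 2 and 3, against 336, 1682 and 1774 CPM in the cell body layers. Section 1 was low for Map1b in both, and within every section the EPL was the higher. The fitted log2 fold change was 1.28 (SE 0.15, adjusted p = 6.53e-15, edgeR), and the ratio of the mean levels was 1.86.

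Map1a (chr2:121289600-121310832, plus strand), the relative of Map1b that is typical of mature dendrites, stood at 674, 1883 and 1604 CPM in the EPL, against 577, 946 and 1045 CPM in the cell body layers. The EPL was higher in 3 of 3 sections, by a small margin in section 1. The log2 fold change was 0.94 (SE 0.16, adjusted p = 1.10e-07, edgeR). Without section 2 it was 0.68 and no longer passed (adjusted p = 0.0820). Map1a shares 272 exon bases with Ppip5k1 on the other strand, and no source used here says whether counting used strand. Dst (1037 with Gm26788, 456 with A930005N03Rik), Dync1h1 (403 with Gm35558), Kif5b (182 with AC113003.1) and Map2 (124 with Gm10558) also share exon bases with other-strand genes.

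Dst (chr1:33908225-34308661, plus strand) encodes dystonin, a very large protein that links filament systems. It had 96.3, 536 and 367 CPM in the EPL, against 40.6, 288 and 213 CPM in the cell body layers. The EPL was higher in all 3 sections, and section 1 was again far below sections 2 and 3. Section 1 held 30 counts of Dst over all regions, against 321 and 171 in sections 2 and 3. Its levels of Dst therefore rest on few counts. For Dst the log2 fold change was 1.14 (SE 0.26, adjusted p = 2.73e-04, edgeR), and 1.05 without section 2 (adjusted p = 0.121).

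Map2 (chr1:66175273-66442583, plus strand), the classical dendritic microtubule-associated protein, had 605, 2611 and 2378 CPM in the EPL, against 627, 2276 and 1995 CPM in the cell body layers. The EPL was higher in sections 2 and 3 and slightly lower in section 1. The log2 fold change of 0.38 (SE 0.15) did not pass (adjusted p = 0.0679, edgeR), and it was 0.40 and passed without section 1 (adjusted p = 0.0103).

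Among the kinesins, Kif1b (chr4:149176319-149307693, minus strand), a motor for mitochondria and synaptic vesicle precursors, had 413, 449 and 527 CPM in the EPL, against 341, 345 and 224 CPM in the cell body layers. The groups did not overlap, and in the EPL the 3 sections were of like level. Kif1b had a log2 fold change of 0.89 (SE 0.22, adjusted p = 0.00129, edgeR), and 0.57 without section 3 (adjusted p = 0.283). Kif1a, a vesicle motor of the same family, had 440, 597 and 638 CPM in the EPL, against 489, 561 and 322 CPM in the cell body layers, with an adjusted p of 0.0636 (edgeR). Klc1, a cargo-binding light chain, had 1293, 367 and 471 CPM in the EPL, against 964, 523 and 563 CPM in the cell body layers, and its section 1 stood above the other two in both.

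None of the 3 tested genes of dynein and dynactin passed in this comparison with edgeR or DESeq2, and 2 had an unadjusted p under 0.05. Dync1h1 had 440, 350 and 343 CPM in the EPL, against 324, 274 and 252 CPM in the cell body layers; the groups did not overlap, and the log2 fold change was 0.63 (SE 0.24, adjusted p = 0.0557, edgeR). Dynll2, a light chain that is also a hub for other proteins, had 688, 405 and 511 CPM in the EPL, against 503, 432 and 294 CPM in the cell body layers (adjusted p = 0.0572, edgeR). Dynll1 had 248, 170 and 208 CPM in the EPL, against 370, 210 and 280 CPM in the cell body layers, lower in the EPL in each section (log2 fold change -0.18, SE 0.27, adjusted p = 0.768, edgeR).

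Nefl (chr14:68083863-68089095, plus strand) had 261, 279 and 343 CPM in the EPL, from 19, 51 and 43 counts, against 122, 137 and 178 CPM in the cell body layers. The EPL was higher in 3 of 3 sections, without overlap between the groups. For Nefl the log2 fold change was 1.36 (SE 0.31, adjusted p = 2.91e-04, edgeR), the ratio of the mean levels was 2.03, and without section 2 the log2 fold change was 1.17 and did not pass (adjusted p = 0.0527). Without section 3 it was 2.80 (adjusted p = 0.00212), with 0 counts of Nefl left in GCL-E, so that this value depends on the prior count. Nefl shares 1108 exon bases with Nefm on the other strand, and reads within that stretch could be told apart only with strand.

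**Figure D2:**
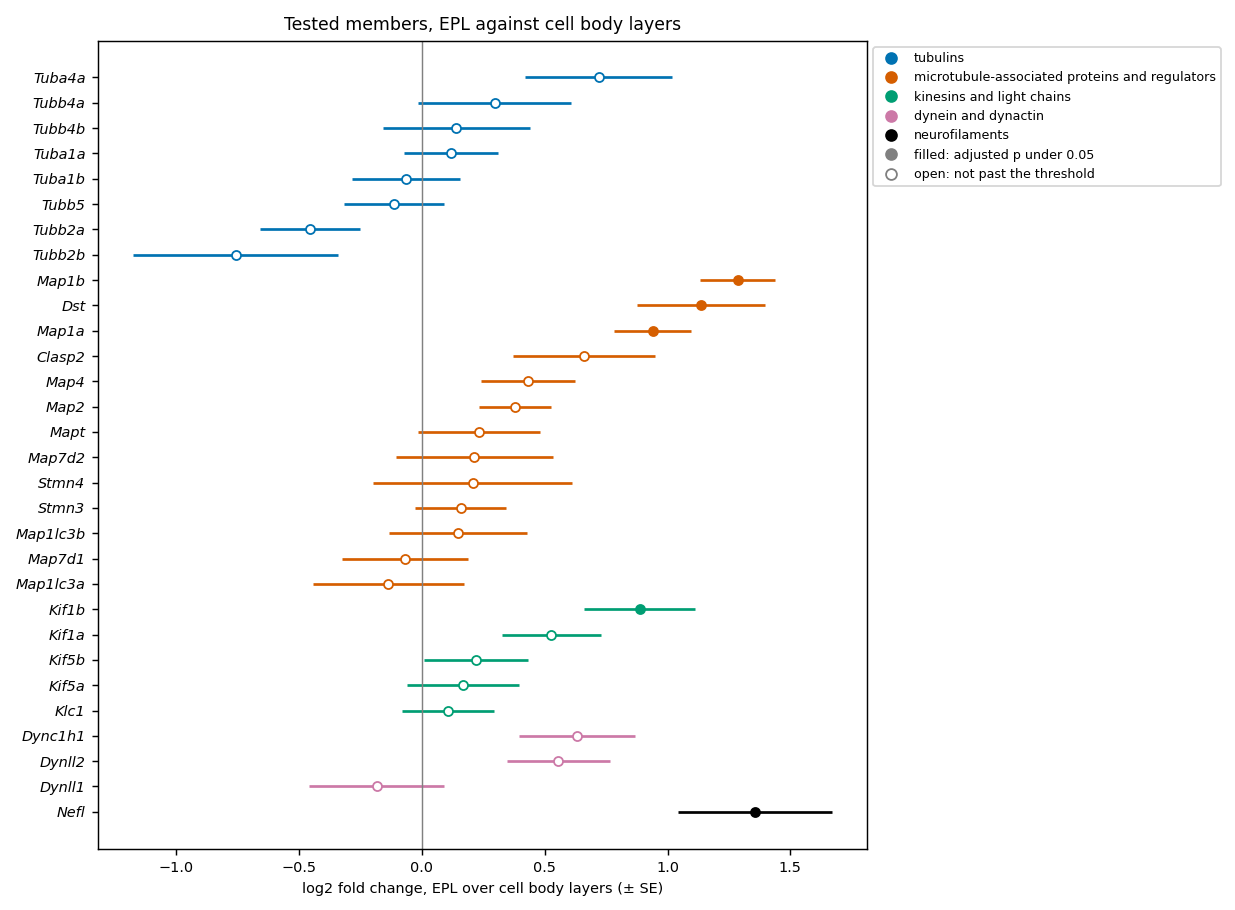
Log2 fold change of the 30 tested genes in the EPL over the cell body layers on the horizontal axis, with bars of ± 1 SE, grouped and coloured by role. Filled points are the 5 genes at an adjusted p under 0.05, all on the right of 0, between 0.89 (Kif1b) and 1.36 (Nefl), while the 8 tubulins, all open, spread on both sides of 0.

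Markers of cell types moved with this contrast. Of the 5 tested markers of mitral and tufted cells, 5 were higher in the EPL than in the cell body layers, and of the 7 tested markers of astrocytes 6 were higher (edgeR, adjusted p under 0.05). The summed level of the astrocyte markers was 3357, 9934 and 9457 CPM in the EPL, against 2347, 4304 and 3998 CPM in M/T and between 1926 and 4154 CPM over the sections in GCL-E and GCL-I. Of the 8 tested markers of granule cells 4 were lower. Of the cell types of the nerve layer, 2 of 3 tested markers of ensheathing glia and 1 of 3 of sensory axons were also higher. For oligodendrocytes 0 of 5 tested markers were called, for neuroblasts 0 of 4 and for periglomerular cells 0 of 2. Of all tested genes, 9.67% were higher and 3.31% lower. The part of these cell types in the levels of the cytoskeletal genes was not tested.

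The contrast was then split by the kind of cell body. Against M/T alone, 1 of 30 genes (Map1a) was higher in the EPL and 0 were lower, against 3.01% and 0.200% of all genes (3.21% in either direction). At an unadjusted p under 0.05, 2 genes were higher and 1 lower. DESeq2 called 0 of the 30 in either direction, where it called 2.56% of all genes. Map1a had 674, 1883 and 1604 CPM in the EPL, against 634, 1218 and 1093 CPM in M/T, higher in 3 of 3 sections. Its log2 fold change was 0.70 (SE 0.22, adjusted p = 0.0441, edgeR), just past the threshold. It was 0.57 without section 2 (adjusted p = 0.760) and 0.62 without section 3 (adjusted p = 0.507). Map1b had 757, 3487 and 2825 CPM in the EPL, against 381, 3086 and 3155 CPM in M/T, and its log2 fold change of 0.26 (SE 0.19) did not pass (adjusted p = 0.587, edgeR). M/T is a narrow strip: 98, 876 and 1672 of its 15765, 35318 and 32015 counts lay more than 5 array positions from another region, so a comparison with neighbouring spots left out could not be made for it or for GCL-E.

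Against the mean of GCL-E and GCL-I, 8 of 30 genes were higher in the EPL and 0 were lower. Of all genes, 10.3% were higher and 4.41% lower (14.7% in either direction). At an unadjusted p under 0.05, 2 of the 30 were lower. DESeq2 called 6 higher and 0 lower, where it called 11.7% of all genes. The 8 were the 5 genes above with Map4, Dynll2 and Kif1a. Map1b had 313, 980 and 1084 CPM in the granule cell layers, so that the EPL was more than double in each section, and its log2 fold change was 1.80 (adjusted p = 1.01e-20, edgeR). Nefl had 87.6, 49.5 and 126 CPM there and a log2 fold change of 1.89 (adjusted p = 1.90e-05), with 0, 0 and 4 counts in GCL-E. Dst had 29.2, 219 and 179 CPM in the granule cell layers, in section 1 from few counts. Its log2 fold change was 1.42 (adjusted p = 1.02e-04, edgeR), which did not pass without section 2 (1.28, adjusted p = 0.0822).

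Map1a had a log2 fold change of 1.06 against the granule cell layers (adjusted p = 1.20e-07, edgeR), and Kif1b of 1.05 (adjusted p = 8.51e-04). Without section 2 Map1a was at 0.73 (adjusted p = 0.0857), and without section 3 Kif1b was at 0.69 (adjusted p = 0.197). Map4, a microtubule-stabilising protein found in many cell types, had 647, 613 and 599 CPM in the EPL, against 435, 449 and 440 CPM in the granule cell layers, without overlap and with hardly any spread (log2 fold change 0.70, adjusted p = 0.0138, edgeR). Dynll2 (0.68, adjusted p = 0.0328) and Kif1a (0.65, adjusted p = 0.0387) were near the threshold, and Kif1a was higher in 2 of 3 sections. Dynll2 lost the call without any single section, at adjusted p between 0.103 and 0.223, while Map4 (0.196 and 0.110) and Kif1a (0.404 and 0.580) lost it without section 2 and without section 3 (edgeR).

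The test of M/T against the granule cell layers is also the test of whether the previous contrasts differ. It called 2 of 30 genes higher in M/T, Map1b and Stmn3, and 0 lower. Of all genes, 1.70% were higher and 0.351% lower (2.05% in either direction). At an unadjusted p under 0.05, 0 of the 30 were lower. DESeq2 called 2 higher and 0 lower, where it called 1.90% of all genes. Map1b had 381, 3086 and 3155 CPM in M/T, against 313, 980 and 1084 CPM in the granule cell layers, with a log2 fold change of 1.54 (SE 0.21, adjusted p = 5.39e-10, edgeR). In section 1 the margin was small, and it was wide in sections 2 and 3. Stmn3 (chr2:181306459-181314500, minus strand), a stathmin that binds free tubulin and promotes microtubule disassembly, had 1269, 793 and 1031 CPM in M/T, against 869, 371 and 462 CPM in the granule cell layers. M/T was higher in all 3 sections, and section 1 was the highest in both (log2 fold change 0.99, SE 0.26, adjusted p = 0.0137, edgeR). Stmn3 did not pass without section 2 (0.93, adjusted p = 0.331) or without section 3 (0.91, adjusted p = 0.241). For Nefl the log2 fold change of 1.60 did not pass (SE 0.51, adjusted p = 0.0720, edgeR). All 5 tested markers of mitral and tufted cells were higher in M/T than in the granule cell layers (edgeR).

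Within the EPL, spots were placed by their distance from M/T and from the GL and divided into an inner, a middle and an outer band of equal relative depth, a comparison added after the data were seen. In the inner band against the outer, 1 of 26 tested genes was higher, which was Map2, and 0 were lower, against 0.312% and 0.104% of the 961 genes tested there (0.416% in either direction). At an unadjusted p under 0.05, 5 of the 26 were higher and 0 lower. DESeq2 called 0 of the 26 and 0 of all 961 genes. Map2 had 800, 3527 and 3036 CPM in the inner band, 471, 2307 and 2156 CPM in the middle band, and 466, 2047 and 1976 CPM in the outer band. In each section the inner band was the highest. The outer band was the lowest in sections 2 and 3, while in section 1 the middle and outer bands were nearly level. The log2 fold change of the inner over the outer band was 0.73 (SE 0.14, adjusted p = 1.75e-04, edgeR), and the ratio of the mean levels was 1.64. Its size changed little when a section was left out, between 0.66 and 0.79, but it passed only without section 1 (adjusted p = 0.0135) and not without section 2 (0.644) or section 3 (0.691).

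Map1b had 867, 3999 and 3452 CPM in the inner band, against 594, 3303 and 2643 CPM in the outer band (log2 fold change 0.34, adjusted p = 0.378, edgeR). Map1a had 700, 2278 and 1763 CPM in the inner band, against 551, 1768 and 1332 CPM in the outer band (0.38, adjusted p = 0.433). Both were above the outer band in 3 of 3 sections and did not pass the test. Dst had 33.3, 540 and 294 CPM in the inner band, against 170, 605 and 489 CPM in the outer band (adjusted p = 0.802). The summed markers of mitral and tufted cells were at 6202, 2076 and 2326 CPM in the inner band, against 5342, 2357 and 2487 CPM in the outer band, and their part in the level of Map2 was not tested.

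**Figure D3:**
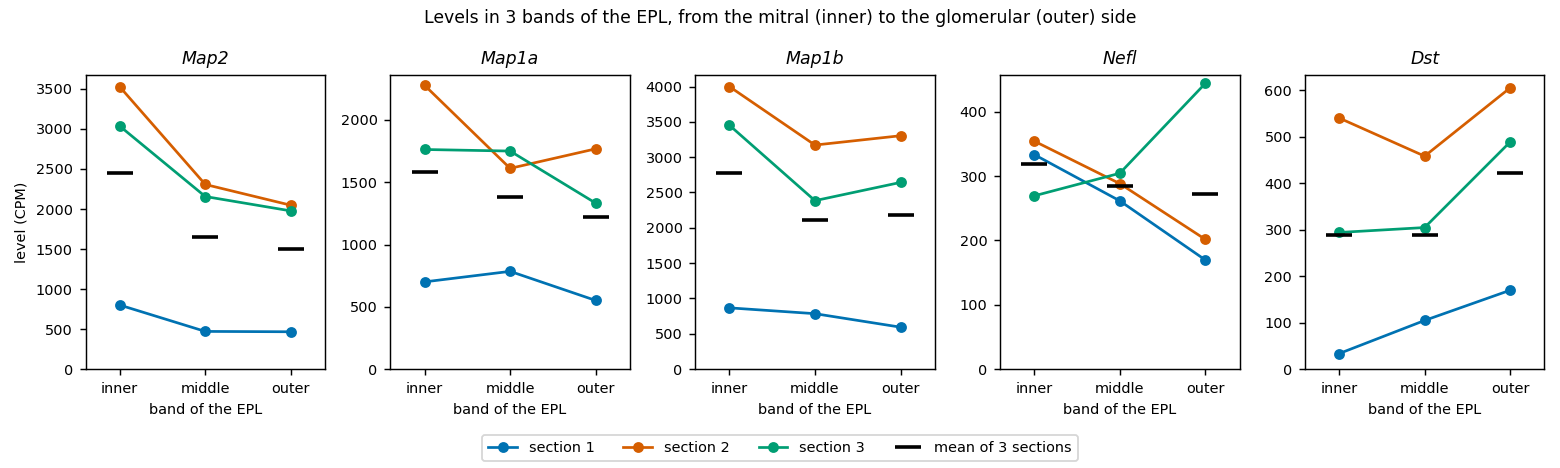
Levels in CPM of Map2, Map1a, Map1b, Nefl and Dst in the inner, middle and outer band of the EPL, on linear axes that start at 0, with a line for each section and a bar for the mean of 3 sections. Map2 has its highest point in the inner band in each section, with a mean of 2454 CPM there and 1497 CPM in the outer band.

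In the ONL against the mean of the other 8 regions, 2 of 30 genes were higher and 1 was lower, against 5.96% and 0.701% of all genes (6.66% in either direction). With library sizes as the only scaling the split over all genes was 83 higher and 61 lower, in place of 119 and 14. Kif5b, the conventional kinesin heavy chain found in most cell types, had 322, 2066 and 1657 CPM in the ONL, against 153, 706 and 597 CPM in the other regions. The ONL was at least double that mean in each section. Section 1 held 49 counts of Kif5b over all regions, against 559 and 377 in sections 2 and 3, so its levels rest on few counts. The GL, where sensory axons end, came next in sections 2 and 3 with 1039 and 930 CPM, while in section 1 it stood at 122 CPM, below that mean, and GCL-E at 369 CPM, from 4 counts, was above the ONL. The log2 fold change was 1.80 (SE 0.17, adjusted p = 1.28e-23, edgeR), and between 1.74 and 1.86 when a section was left out. Its neuronal relative Kif5a was not called in the ONL (log2 fold change 0.05, SE 0.25, adjusted p = 0.947). The 5 markers of ensheathing glia summed to 3864, 5222 and 4024 CPM in the ONL, against 1488, 2032 and 2292 CPM in the GL, and 3 of 3 tested were higher in the ONL than in the other regions, as were 3 of 3 tested markers of sensory axons (edgeR). Which of these cells the Kif5b counts came from was not tested.

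Dst had 64.4, 693 and 455 CPM in the ONL, against 78.4, 350 and 495 CPM in the other regions. The fitted log2 fold change was 1.03 (SE 0.24, adjusted p = 7.55e-04, edgeR), although the mean level was higher in 1 of 3 sections. In section 1 the ONL level rested on 1 count, and the RMS of section 3 stood at 2060 CPM, from 3 counts. Without section 2 it was 0.78 and did not pass (adjusted p = 0.446). Map2 had 708, 1033 and 1184 CPM in the ONL, against 650, 2319 and 1810 CPM in the other regions. It was lower in sections 2 and 3 (log2 fold change -0.60, SE 0.18, adjusted p = 0.0195, edgeR), and did not pass without section 2 (-0.33, adjusted p = 0.773) or without section 3 (-0.70, adjusted p = 0.0999).

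The other neurofilament genes fell below the filter and are given by level alone. Nefm, the medium subunit, had 127, 142 and 375 CPM in M/T and 124, 65.7 and 104 CPM in the EPL, against 38.9, 66.0 and 21.3 CPM in GCL-I. It had 0 of 22903 counts in the RMS, which allows a level of up to 131 CPM by counting error alone. Nefh, the heavy subunit, averaged 101 ± 32.7 CPM in M/T and 69.1 ± 29.3 CPM in the EPL, against 15.7 ± 27.2 CPM in GCL-E and 17.5 ± 16.6 CPM in GCL-I (SD, n = 3). Ina, or alpha-internexin, lay differently, with 124, 71.2 and 104 CPM in the EPL, against 186, 139 and 133 CPM in the cell body layers. Summed over the 4 neurofilament genes, the level was 578, 515 and 591 CPM in the EPL and 507, 708 and 906 CPM in M/T, against 276, 189 and 333 CPM in GCL-E and 389, 379 and 298 CPM in GCL-I.

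Of 76 further genes of the same pathways, 28 were tested. In the EPL against the cell body layers, 2 were higher and 1 lower, which is 10.7% of the 28, against 13.0% of all 1996 genes. Ttll7, a ligase that adds glutamate chains to tubulin, was at 330, 498 and 303 CPM in the EPL, against 164, 235 and 360 CPM in the cell body layers (log2 fold change 1.01, adjusted p = 0.00116, edgeR). Stmn2, a growth-associated stathmin, was at 151, 170 and 208 CPM in the EPL, against 84.6, 148 and 177 CPM in the cell body layers (1.03, adjusted p = 0.0478, edgeR). The ratios of the mean levels were 1.49 for Ttll7 and 1.29 for Stmn2, smaller than the fitted folds of 2.01 and 2.04. Dync1i1, an intermediate chain of dynein, was the lower, at 481, 181 and 263 CPM in the EPL, against 848, 498 and 399 CPM in the cell body layers (-0.75, adjusted p = 0.00847). The same 3 passed in the same directions against the granule cell layers, where 14.7% of all genes were called. Against M/T alone none of these 3 passed, where 3.21% of all genes were called. There Stmn2 was lower in the EPL in 3 of 3 sections (-0.43, adjusted p = 0.742, edgeR). Ttll7 was at -0.11 (adjusted p = 0.930) and Dync1i1 at -0.76 (adjusted p = 0.185). In M/T against the granule cell layers, Stmn2 (2.18, adjusted p = 0.00845, edgeR) and Ttll7 (1.69, adjusted p = 0.00228) were higher, 7.14% of the 28 against 2.05% of all genes. In the ONL, Trak2, an adaptor that ties mitochondria to kinesin, was higher than in the other regions (1.55, adjusted p = 2.05e-04) and Dync1i1 lower (-1.11, adjusted p = 0.0151), 7.14% of the 28 against 6.66% of all genes.

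Section 1 differed from the others gene by gene within the set. Over whole sections, 18 of the 40 genes were lower in section 1 than in the mean of sections 2 and 3 and 22 were higher. Among the 30 tested genes the lowest log2 ratios belonged to Kif5b (-2.49), Dst (-2.25), Map1b (-2.12) and Map2 (-1.58), and the highest to Tubb4a (1.74), Tubb2b (1.38) and Stmn3 (1.29). Across the 40 genes, which are not independent replicates, the ratio fell with the length of the longest protein-coding transcript (Spearman's rho -0.684), and across 1902 tested genes with a length the rho was -0.607. Map1b was lower in section 1 than in sections 2 and 3 in each of the 9 regions, and the comparisons above were made within sections. Without section in the model, 0 of 30 genes passed with edgeR in any of the comparisons, where between 0 and 6 had an unadjusted p under 0.05. That fit called few genes of any kind: 0.501% of all 1996 genes for the EPL against the cell body layers, where 13.0% were called with section in the model, and 2.0% among the 9 regions in place of 23.2%.

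**Figure D4:**
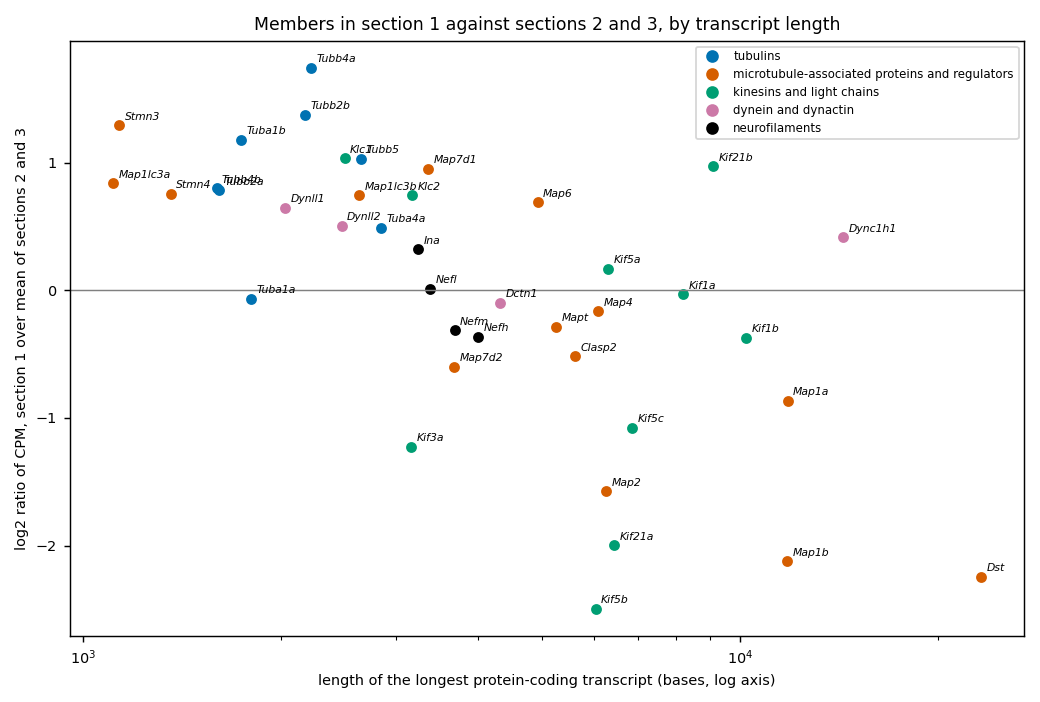
Log2 ratio of the level in section 1 over the mean of sections 2 and 3 for each of the 40 genes, against the length of its longest protein-coding transcript in bases on a log axis, coloured by role. Points fall from Tubb4a at 1.74 among the short transcripts to Dst at -2.25, the longest, with a Spearman's rho of -0.684.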

How the data were processed

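High-density spatial transcriptomics was run on 3 sections of mouse main olfactory bulb. The authors deposited raw counts per spot and gene, and per the file headers a table of array position, pixel position and region for spots under tissue. Per the submitters' processing notes the build was mm10. Aligner, annotation, use of molecular identifiers and how regions were drawn are not stated there. Each count took the region at its pixel position, and counts without a gene name (0.0325%, 0.0764% and 0.0801% of the sections) or without a region (42, 5699 and 3435) were left out. The 27 sums per section and region were scaled to CPM, and tested with edgeR 4.0.16 (R 4.3.3): quasi-likelihood test, TMM scaling, filterByExpr with a minimum count of 10, region and section as terms, Benjamini-Hochberg over all genes, threshold 0.05. Depth limits precision most in the RMS. The limit given for 0 counts covers counting error only. SEs come from the quasi-likelihood fit and also hold the spread between sections. Sections pair the regions, since the sums of a section come from the same tissue: after subtracting region means, sums of a section correlated at a mean of 0.350 (108 pairs) and sums of different sections at -0.151. On counts simulated for the 1996 genes, the EPL contrast recovered 66% of changed genes at a fold of 2 and 97% at a fold of 4. Each simulated sum was drawn independently with the fitted spread, and only the EPL was changed. Region differences that vary by section were not put in, so these shares need not hold for the data. The genes, lists and tests were chosen with earlier results of these data known. Genes called in a comparison and the 3 of each role with the most counts are given section by section. Where regions are grouped, the printed CPM is their plain mean. The fitted log2 fold change averages them on the log scale with TMM scaling, so that its size can differ from the ratio of the levels. Alternatives used DESeq2 1.42.0, other scalings and filters, no section term, left-out sections, boundary spots left out, another join, and other sets of regions. Gene locations, transcript lengths and sequences are from GENCODE M21 (mm10).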

Additional observations from a re-analysis of the deposited data

Results flagged for a closer look

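Spots without a named region held 143 counts of the 40 genes among 9176 counts, or 15584 CPM, where the annotated regions held 14452 CPM. These spots entered no comparison; 1, 82 and 60 of the 143 counts were in sections 1, 2 and 3.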

How the results depend on the processing

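No called gene changed direction under any alternative. Map1b (EPL, and M/T against the granule cell layers) and Kif5b (ONL) kept their calls under all alternatives but 1, the fit without the section block. That fit called 0 genes of the set in each of the 7 comparisons, against 5 (EPL against cell body layers), 1 (against M/T), 8 (against granule cell layers), 2 (M/T against granule cell layers), 3 (ONL), 10 (any region) and 1 (inner EPL) with it; over all genes it called between 0 and 2.0%, against between 0.416% and 23.2% with it. When each section was left out, these counts ran between 2 and 7, 0 and 2, 3 and 9, 1 and 2, 1 and 3, 3 and 12, and 0 and 1; of all genes, between 5.43% and 14.4% were then called for the EPL against the cell body layers, 0.226% and 4.15% against M/T, 7.35% and 15.3% against the granule cell layers, 0.735% and 1.49% for M/T against these, 3.0% and 8.77% for the ONL, 9.84% and 23.1% for any region, and 0 and 0.551% for the inner EPL. For the EPL against the cell body layers the count was 12 without a filter (2.78% of all 19621 genes), 8 with spots joined by name (13.9%), 9 with the ependymal cell zone added (15.7%), and 9 without spots within 1 position of another region (12.4%). Against M/T it was 0 with RLE scaling, library sizes, a minimum count of 5 and DESeq2 (between 1.16% and 3.76% of all genes), with between 2 and 4 at an unadjusted p under 0.05. Against the granule cell layers it was 13 without a filter (2.07%), and 4 for GCL-I alone with a boundary of 5 positions (9.42%). For M/T against the granule cell layers it was 1 without a filter (0.0917%) and 1 without spots within 1 position (1.41%). For the inner EPL it was 0 with DESeq2 (1 unadjusted), which called 0 of all 961 genes there. The cause was not tested. The 5-position boundary left too few counts in M/T, GCL-E and RMS, so contrasts with them have no value under it.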
